A study of Homo sapiens with 6 samples.

Results

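The regions described here are open chromatin sites at the promoters of standalone long non-coding RNA (lncRNA) genes in human neural progenitor cells (NPCs). A peak of accessible chromatin was taken when its summit lay within 1 kb of the start of a gene annotated as lncRNA and more than 3 kb from the start of every protein-coding gene. Of 7880 WT peaks 356 were such promoter peaks, of 25439 dKO peaks 1189, and of 16948 BAF53B peaks 783, so that 2328 of 50267 peaks were members. Merged where they overlapped, they made 1361 regions.

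The study measured chromatin accessibility by ATAC-seq, a method that tags open DNA with adapters carried by the transposase Tn5, in NPCs made from H1, a human embryonic stem cell line. WT NPCs carried the unmodified H1 genome, and dKO NPCs were made from H1 cells in which the catalytic domains of JMJD3 and UTX, the demethylases of histone H3 lysine 27 trimethylation, had been deleted (JMJD3-/-, UTX-/Y) by CRISPR/Cas9 in selected clones. BAF53B NPCs were dKO NPCs given BAF53B, a subunit of the neuronal BAF chromatin remodelling complex, by lentivirus, so that the BAF53B and dKO groups share both deletions. The study took WT and dKO NPCs at passage 2. The BAF53B sample titles name NPCs but give no passage, so whether that group was matched in passage is not known. A figure caption of the study describes ATAC-seq of dKO cells given BAF53B as from differentiated cells. The sample titles are followed here. Each group had 2 replicate libraries, which the authors pooled into 1 peak list, so no difference between groups could be set against the spread of replicates. Intervals given below are 95% intervals and cover counting error only. The 3 lists also differed in length, and a peak missing from a list sets no accessibility value for that site.

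Many lncRNA genes start within a nucleosome-free region that resembles the promoter of a protein-coding gene, with the same general transcription factors and often a CpG island. Others start at sites with the features of distal enhancers, few CpG dinucleotides and recognition sites for cell type factors. Some lncRNAs act near their own locus on neighbouring genes, some act elsewhere in the nucleus, and others serve as hosts from whose introns or exons microRNAs and small nucleolar RNAs (snoRNAs) are cut.

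To show what these promoters look like, the summit with 100 bases to each side is given for the region of highest fold enrichment among those called in WT and BAF53B, in dKO and BAF53B, and in 1 list alone. The region of second highest fold among those in all 3 lists, MALAT1 and LINC01220 were added after their values were seen. Each is the plus strand of hg38, and capitals mark every CG dinucleotide and every match to a motif searched below.
ENSG00000271780, chr14:101948126-101948326: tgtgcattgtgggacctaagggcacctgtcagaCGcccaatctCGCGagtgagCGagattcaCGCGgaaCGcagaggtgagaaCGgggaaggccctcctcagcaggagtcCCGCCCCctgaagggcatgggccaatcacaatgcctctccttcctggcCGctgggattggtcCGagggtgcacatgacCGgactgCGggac
MALAT1, chr11:65497467-65497667: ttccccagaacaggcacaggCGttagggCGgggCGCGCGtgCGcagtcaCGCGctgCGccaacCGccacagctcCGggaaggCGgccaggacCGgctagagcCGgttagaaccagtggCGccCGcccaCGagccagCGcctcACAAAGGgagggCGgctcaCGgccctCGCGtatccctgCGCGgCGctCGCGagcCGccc
LINC01220, chr14:75294160-75294360: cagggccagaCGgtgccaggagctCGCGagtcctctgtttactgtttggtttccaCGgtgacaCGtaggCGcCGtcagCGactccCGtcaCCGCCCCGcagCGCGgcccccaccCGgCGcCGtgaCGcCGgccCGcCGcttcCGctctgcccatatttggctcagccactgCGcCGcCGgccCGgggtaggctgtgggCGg
ENSG00000291099, chr7:5822973-5823173: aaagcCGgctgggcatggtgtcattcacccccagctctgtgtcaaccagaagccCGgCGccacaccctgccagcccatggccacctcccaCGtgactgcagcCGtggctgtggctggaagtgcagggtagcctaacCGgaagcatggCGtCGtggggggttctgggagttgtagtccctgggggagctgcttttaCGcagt
LINC03067, chr5:1594486-1594686: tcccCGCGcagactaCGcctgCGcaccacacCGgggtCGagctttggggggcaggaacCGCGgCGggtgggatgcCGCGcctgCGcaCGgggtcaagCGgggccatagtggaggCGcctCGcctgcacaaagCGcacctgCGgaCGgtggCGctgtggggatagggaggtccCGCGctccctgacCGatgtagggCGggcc
PRICKLE2-AS3, chr3:64187308-64187508: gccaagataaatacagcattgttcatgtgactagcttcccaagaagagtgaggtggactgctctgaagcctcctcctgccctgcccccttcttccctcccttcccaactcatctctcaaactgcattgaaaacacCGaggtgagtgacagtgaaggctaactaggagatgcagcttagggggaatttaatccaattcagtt
ENSG00000266495, chr18:23259782-23259982: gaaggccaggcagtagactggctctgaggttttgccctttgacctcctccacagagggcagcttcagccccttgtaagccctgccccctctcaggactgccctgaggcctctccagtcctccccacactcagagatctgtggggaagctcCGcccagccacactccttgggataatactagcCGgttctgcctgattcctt
ENSG00000289510, chr12:95336523-95336723: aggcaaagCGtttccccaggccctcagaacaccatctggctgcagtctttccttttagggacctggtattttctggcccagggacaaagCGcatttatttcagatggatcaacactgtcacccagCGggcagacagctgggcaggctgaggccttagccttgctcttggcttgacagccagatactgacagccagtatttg
The windows ran from GC-rich to CpG-poor. MALAT1 held 28 CG dinucleotides, LINC01220 26 and LINC03067 24, whereas PRICKLE2-AS3, found in WT alone, held 1 and ENSG00000266495, found in dKO alone, held 2. ENSG00000289510, found in BAF53B alone, held 3. The only motif matches were to SP/KLF in ENSG00000271780 and LINC01220 and to SOX in MALAT1.

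Standalone lncRNA promoters took nearly the same share of every full list. They were 4.52% of WT peaks (interval 4.08 to 5.00), 4.67% of dKO peaks (4.42 to 4.94) and 4.62% of BAF53B peaks (4.31 to 4.95). The dKO share exceeded the WT share by 0.16 percentage points, with an interval from -0.39 to 0.67. In lists cut to the 7880 peaks of highest significance, dKO (409) and BAF53B (402) had more members than WT (356). Protein-coding promoter peaks, with a summit within 1 kb of a protein-coding start, instead took 55.2% of the WT list, 36.0% of the dKO list and 41.9% of the BAF53B list. Distal peaks, more than 3 kb from all lncRNA and protein-coding starts, took 35.6%, 52.6% and 47.6%.

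Peak strength was expressed as the summit pileup, the number of fragments stacked at the summit, which was recovered from the deposited fold and p-value. The genome-wide background was 6.33 fragments in WT, 6.81 in dKO and 6.78 in BAF53B. The median summit pileup of lncRNA promoter peaks was 36 in WT (quartiles 31 and 44), 43 in dKO (35 and 59) and 39 in BAF53B (33 and 48). Protein-coding promoter peaks were higher, with medians of 40, 55 and 45, and distal peaks lower, with 31, 34 and 33. The median width of the lncRNA promoter peaks was 481.5 bp in WT, 639 bp in dKO and 610 bp in BAF53B.

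**Figure D1:**
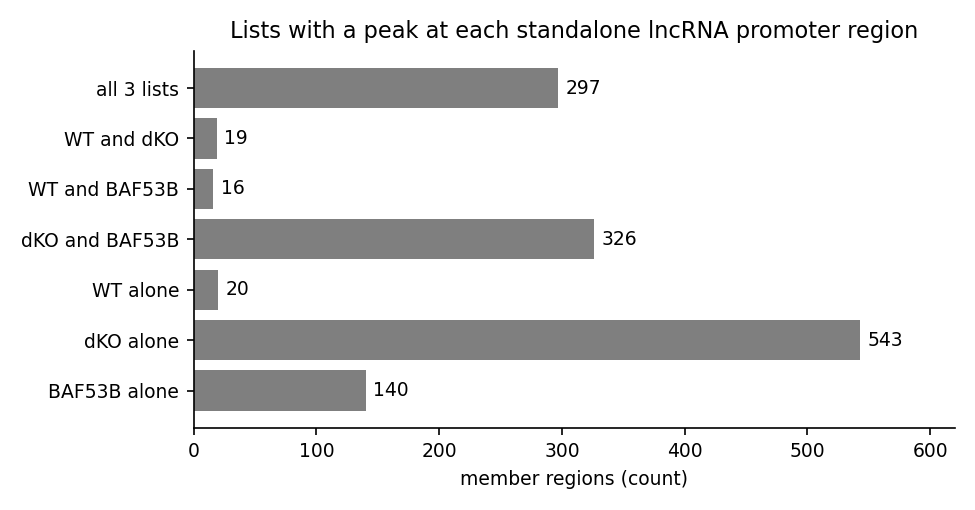
Number of standalone lncRNA promoter regions by the lists that had a peak there, with the count on the x axis and 1 bar for each combination of lists. Regions in dKO alone (543) were the most numerous, and those in WT alone (20) and in WT and BAF53B (16) were few.

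Of the 1361 regions, 297 (21.8%) had a peak in all 3 lists, 326 (24.0%) in dKO and BAF53B without WT, and 543 (39.9%) in dKO alone. A further 140 (10.3%) were in BAF53B alone, 20 in WT alone, 19 in WT and dKO, and 16 in WT and BAF53B without dKO. The lists differ in length, and genes with a promoter peak of either kind can be set side by side. Of the 1444 standalone lncRNA genes with a peak, 23.8% had one in all 3 lists, 24.6% in dKO and BAF53B, 37.5% in dKO alone and 9.90% in BAF53B alone. Of the 10681 protein-coding genes with a peak these were 45.95%, 27.1%, 20.9% and 3.202%. Counted over peaks, 24.4% of all dKO peaks had a WT peak and 44.3% a BAF53B peak. For dKO lncRNA promoter peaks these shares were 26.4% and 52.7%, not below those of peaks in general. Regions in all 3 lists had a median pileup of 38 in WT, 68 in dKO and 49 in BAF53B. Regions in dKO alone had a median dKO pileup of 38, and those in BAF53B alone a median of 32, so the regions of a single list were mostly low peaks.

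Seen from the genes, 405 of 15153 standalone lncRNA genes had a promoter peak in WT (2.67%, interval 2.43 to 2.94), 1259 in dKO (8.31%, 7.88 to 8.76) and 861 in BAF53B (5.68%, 5.32 to 6.06). At protein-coding genes the shares were 26.0%, 51.1% and 40.9%. In all, 1444 standalone lncRNA genes (9.53%) had a promoter peak in any list, and 13709 had none. LncRNA genes that start within 3 kb of a protein-coding start had one more often, with 29.2% in WT, 56.6% in dKO and 45.8% in BAF53B.

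The classes of lncRNA gene differed in how many had a promoter peak. Standalone genes with a protein-coding transcript start within 3 kb had one at 347 of 1747 (19.9%), against 1097 of 13406 without (8.18%). The part of such starts in the class differences was not tested. Of the 33 standalone genes named as divergent transcripts (symbols ending in DT), 17 had a peak in any list (51.5%, interval 35.2 to 67.5). Host genes (symbols ending in HG, with or without a number) had one at 28 of 92 (30.4%, 22.0 to 40.5) and antisense genes at 191 of 1136 (16.8%, 14.8 to 19.1). LINC genes, the numbered intergenic lncRNAs, had one at 215 of 2159 (9.96%, 8.77 to 11.3), and genes known by an identifier only at 871 of 10932 (7.97%, 7.47 to 8.49). Genes that GENCODE marks as hosts of small RNAs had a peak at 109 of 550 (19.8%), and those that overlap a pseudogene at 125 of 758 (16.5%). Reads from pseudogenes and their parent genes can be alike, and how reads with several matches were treated is not given in the sources used here.

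The rule limited the summits to 1 kb from an annotated start, and within that window many lay close to it. Within 100 bp of a start were 148 of the WT members, 441 of the dKO members and 319 of the BAF53B members. Just inside the limit of the rule, at 901 to 1000 bp, were 8, 46 and 24 members, and just outside it, at 1001 to 1100 bp, 7, 39 and 19 peaks. The median distance was 165 bp over all 1361 regions (quartiles 63 and 472), 122 bp for regions in all 3 lists, 216 bp for dKO alone and 254.5 bp for BAF53B alone. The summit was upstream of the lncRNA start in 764 regions (56.1%), and in 187 of the 297 regions in all 3 lists (63.0%). It fell outside protein-coding genes in 831 regions, in a protein-coding intron in 371 and in a protein-coding exon in 159. Where the region lay in the body of a protein-coding gene, the lncRNA was mostly on the opposite strand, in 456 regions against 65 on the same strand. At 106 regions, lncRNA genes of both strands started within 1 kb of the summit.

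The rule used 1 start per gene, and a protein-coding gene often has further transcript starts. In WT 116 of 356 promoter peaks (32.6%) lay within 3 kb of another protein-coding transcript start, in dKO 340 (28.6%) and in BAF53B 235 (30.0%). Examples were NBR2, whose summit was 10 bp from such a start, and MEF2C-AS1 and ANO3-AS1. These promoters were called in other lists more often than the rest. Of dKO peaks near such a start 63.8% had a BAF53B peak, against 48.3% of those without one, a difference of 15.5 percentage points (interval 9.31 to 21.5). Of BAF53B peaks the shares with a dKO peak were 92.3% and 74.8%. The median CpG ratio was 0.82 near such starts and 0.62 away from them in dKO. Their pileup was also higher, with medians of 49 and 42 in dKO and of 41 and 37 in BAF53B, and its part in these shares was not tested.

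Most WT promoter peaks of lncRNA genes were also found in the knockout. Of 356 WT members, 320 had a dKO peak (89.9%, interval 86.3 to 92.6), where 79.4% of all WT peaks had one. The share was 7.77 points below that of WT protein-coding promoter peaks (interval of the difference -11.4 to -5.00) and 40.4 points above that of distal peaks (36.3 to 43.6). A BAF53B peak was found at 316 of the 356 (88.8%), where 79.5% of all WT peaks had one.

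In the other direction, dKO promoter peaks of lncRNA genes had a WT counterpart about as often as dKO peaks in general. Of 1189 dKO members, 314 had a WT peak (26.4%, interval 24.0 to 29.0), where 24.4% of all dKO peaks had one. This left 875 dKO promoter peaks of lncRNA genes without a WT peak. Protein-coding promoter peaks of dKO had a WT peak at 46.1% and distal peaks at 10.3%. A BAF53B peak was found at 627 of the 1189 (52.7%, 49.9 to 55.6), where 44.3% of all dKO peaks had one, and 562 had none. These shares moved with the length of the lists. When each list was cut to its 7880 peaks of highest significance, 409 dKO peaks were lncRNA promoter peaks, and 58.7% of them had a WT peak and 66.0% a BAF53B peak.

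Of 783 BAF53B members, 315 had a WT peak (40.2%, interval 36.9 to 43.7), where 36.7% of all BAF53B peaks had one. A dKO peak was found at 627 (80.1%, 77.1 to 82.7), where 66.7% of all BAF53B peaks had one. Between promoters of lncRNA and of protein-coding genes, the difference was -14.3 points (interval -17.3 to -11.6) for the dKO partner and -17.1 points (-20.7 to -13.5) for the WT partner. With lists of equal length 402 BAF53B peaks were members, and 62.2% of them had a WT peak. In all 6 directions the lncRNA promoter peaks stood between protein-coding promoter peaks and distal peaks.

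**Figure D2:**
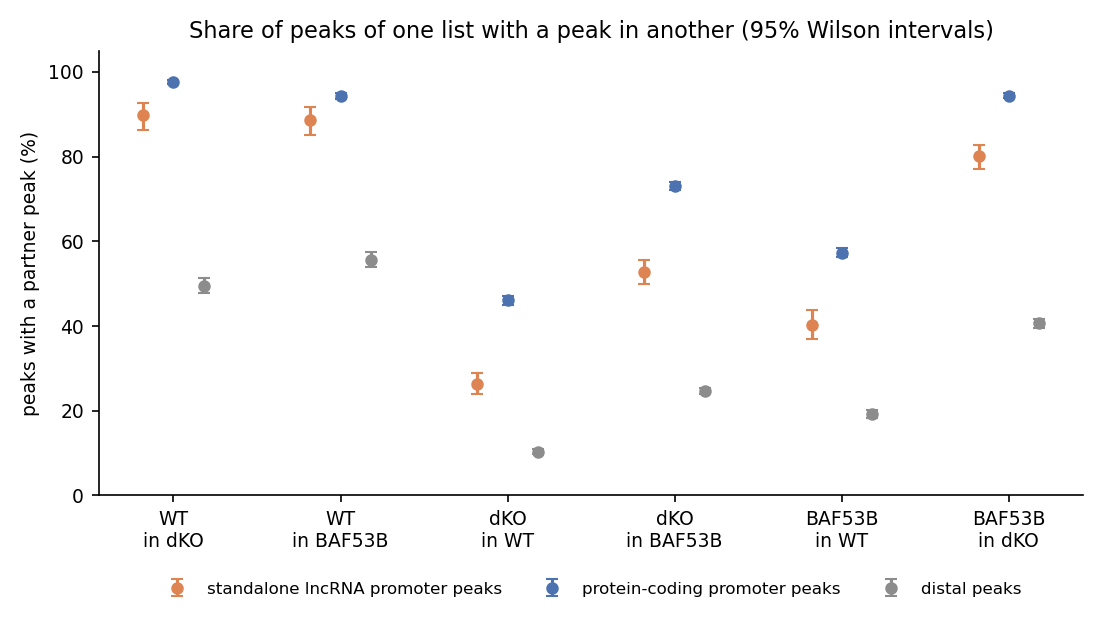
Share of peaks of the first list that overlap a peak of the second by at least 1 bp (y axis, %), for lncRNA promoter peaks, protein-coding promoter peaks and distal peaks, with 95% Wilson intervals. In each of the 6 directions the lncRNA promoter peaks lay below the protein-coding promoter peaks and above the distal peaks.

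The share with a partner rose with the pileup of the peak. Among WT members with a pileup under 35, 125 of 158 had a dKO peak (79.1%), and at 35 to 49 this was 142 of 145 (97.9%). Over all WT peaks of these pileups the shares were 58.1% and 93.7%. All 50 WT members with a pileup of 50 to 74 and all 3 above that had one, near the 99.6% and 100% of all WT peaks. Among dKO members under 35, 22 of 291 had a WT peak (7.56%), and among those of 75 or more 128 of 155 did (82.6%), where 4.51% and 81.4% of all dKO peaks did. Protein-coding promoter peaks of the same pileup had a WT peak at 9.82% and 87.1%, and distal peaks at 3.66% and 64.5%. WT members under 35 had a dKO peak less often than protein-coding promoter peaks of that pileup, by 15.6 points (interval 9.82 to 22.7), and at 35 to 49 the interval of the difference ran from -4.19 to 1.18 points.

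At the sites called in both lists, the summit pileup was compared after division by the genome background of its list. The 320 WT members with a dKO peak had a median log2 ratio of dKO over WT of 0.71 (quartiles 0.38 and 0.99), a 1.63-fold difference. The pileup was higher in dKO at 290 of them, and at least 1.5-fold higher at 195 (60.9%), where 59.8% of all shared peaks were. It was at least 1.5-fold lower at 1, where 0.448% of all shared peaks were. Only sites called in both lists enter such ratios, and no called dKO peak had a pileup below 25. A low WT peak that fell further would be missing here, so falls can be undercounted. The same limit holds for the other pairs of lists. These promoters thus differed between dKO and WT by about as much as shared peaks in general, for which the median was 0.71.

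Over the 316 sites shared by WT and BAF53B, the median log2 ratio was 0.27 (quartiles 0.03 and 0.50). The pileup was at least 1.5-fold higher in BAF53B at 55 (17.4%), where 14.9% of all shared peaks were, and at least 1.5-fold lower at 1, where 0.271% were. Over the 627 sites of dKO members with a BAF53B peak, the median log2 ratio of BAF53B over dKO was -0.34 (quartiles -0.65 and -0.04). The pileup was at least 1.5-fold lower in BAF53B at 183 (29.2%), where 30.0% of all shared peaks were, and at least 1.5-fold higher at 7 (1.12%), where 1.30% were. Each pair of these 3 comparisons shares a list. The local background that the peak caller set beside each peak was also higher in dKO than in WT at the shared lncRNA promoters, with a median log2 ratio of 0.36, and the part of that background in the difference was not tested. With the authors' fold, which divides by that local background, the median of dKO over WT was 0.43.

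**Figure D3:**
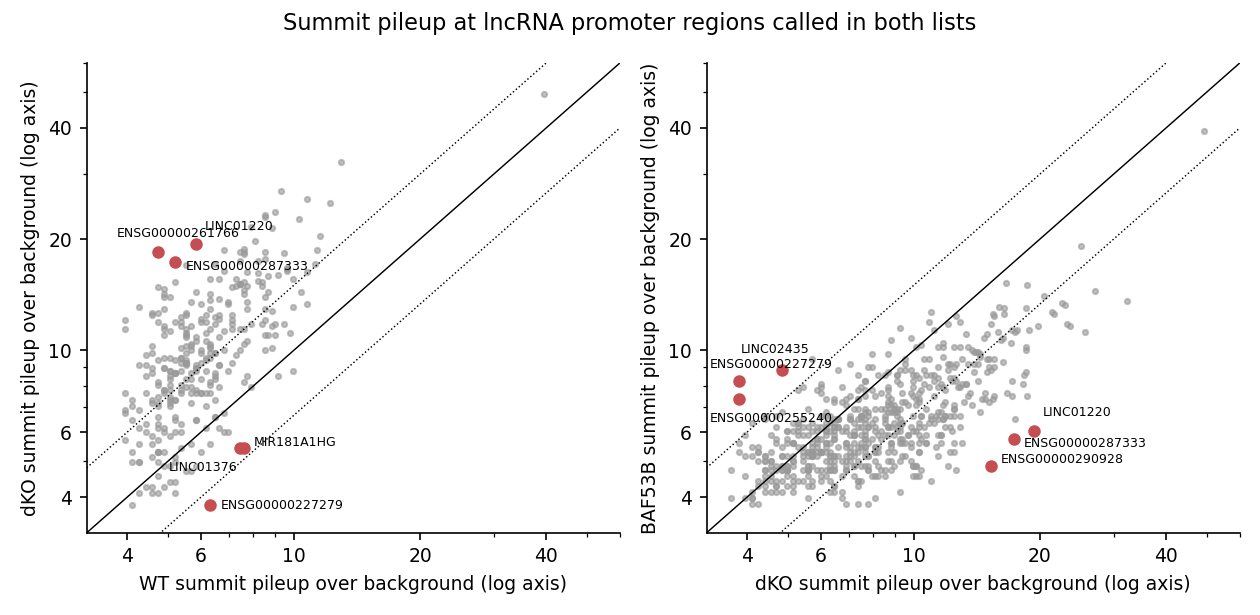
Summit pileup divided by the genome background at lncRNA promoter regions called in both lists, on log axes, WT against dKO (left) and dKO against BAF53B (right). Each point is 1 region, the solid line marks equal values, dotted lines mark 1.5-fold, and red points are the 3 highest and 3 lowest ratios. Most points lie above the line on the left (median log2 ratio 0.71) and below it on the right (median -0.34).

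The largest differences were at few genes. ENSG00000261766, at chr16:28863257-28864189 opposite SH2B1, lay in a protein-coding exon and 117 bp from a protein-coding transcript start. It had a pileup of 30 in WT, 126 in dKO and 59 in BAF53B. ENSG00000287333, on chromosome 9, had 33, 118 and 39. LINC01220, at chr14:75293870-75294801 and 15.4 kb from the start of FOS, had 37, 132 and 41. At these 3 genes the dKO pileup was highest by more than 3-fold over WT, with log2 ratios of 1.96, 1.73 and 1.73, and the BAF53B pileup lay near the WT pileup at LINC01220 and ENSG00000287333. LINC01220 and ENSG00000287333 also had BAF53B over dKO ratios among the 3 lowest, at -1.68 and -1.59, with ENSG00000290928 at -1.65.

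At 3 WT members the dKO pileup was the lowest in proportion. ENSG00000227279, at chr18:27921825-27922853, had 40 in WT, 26 in dKO and 56 in BAF53B, and MIR181A1HG had 48, 37 and 54. LINC01376, on chromosome 2 and 10.6 kb from the start of OSR1, had 47, 37 and 40. Their log2 ratios of dKO over WT were -0.73, -0.48 and -0.45. For MIR181A1HG the direction turned with the scaling, since the authors' fold over local background was 4.31 in WT and 4.86 in dKO. The highest ratios of BAF53B over dKO were at ENSG00000227279 (1.11), ENSG00000255240 (0.95) and LINC02435 (0.87). The low dKO pileup of ENSG00000227279 enters both of its ratios. ENSG00000227279 was the 1 shared WT and dKO member with a pileup at least 1.5-fold lower in dKO.

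Known lncRNA genes were grouped by role. Of the genes on these lists that are standalone, 40 had a promoter peak in at least 1 list, 18 in WT, 36 in dKO and 27 in BAF53B, and 16 in all 3. Over all standalone lncRNA genes the share with a peak in any list was 9.53%, beside which the counts of each list below can be read. In dKO and not in WT were 20 genes, of which 12 had no BAF53B peak, and in WT and not in dKO were 2. Over all standalone lncRNA genes with a dKO peak, 28.8% also had a WT peak and 55.4% a BAF53B peak. At the 16 genes with a peak in both WT and dKO, the pileup over background was higher in dKO at 15 and at least 1.5-fold higher at 11, where 59.8% of all shared peaks were. The median log2 ratio was 0.77. With the authors' fold dKO was higher at all 16, MIR181A1HG included.

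Widely expressed lncRNAs were well represented, with a peak at 10 of 17 standalone genes. MALAT1, the abundant nuclear speckle RNA on chromosome 11, had a summit pileup of 41 in WT, 117 in dKO and 51 in BAF53B, 6.48, 17.2 and 7.53 times the genome background. The dKO value was 2.65 times the WT value after division by background. DANCR, a lncRNA that also hosts a snoRNA, had 49, 92 and 62. CHASERR, which lies upstream of CHD2, had 32, 60 and 34. NEAT1, the architectural RNA of paraspeckles, had a peak in dKO alone, at a pileup of 62. FIRRE, an X-linked nuclear RNA, also had one in dKO alone, at 48. NORAD, a cytoplasmic RNA that binds Pumilio proteins, had 55 in dKO and 36 in BAF53B with no WT peak. JPX, an activator of X inactivation, had 26 in WT and 27 in BAF53B with no dKO peak. HCG11 had 2 dKO promoter peaks. The one compared, at chr6:26521580-26522275, did not overlap the BAF53B peak at chr6:26520953-26521427.

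SnoRNA host genes, whose introns carry the guide RNAs of ribosomal RNA modification, had a peak at 11 of 19 standalone genes, 8 of them in all 3 lists. SNHG30 had the highest fold among them, with a pileup of 54 in WT, 88 in dKO and 81 in BAF53B. SNHG29 had 47, 103 and 61, and SNHG21 had 31, 75 and 45. SNHG25 had 49, 72 and 60, SNHG16 had 40, 71 and 45, and SNHG11 had 34, 43 and 35. At all 6 the dKO value was the highest, and at SNHG30 the BAF53B value was close to it. SNHG8 had 58 in dKO and 32 in BAF53B, SNHG15 had 53 in dKO, and SNHG6 had 32 in BAF53B. EPB41L4A-AS1 had 41, 58 and 44.

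Of 76 standalone microRNA host genes, 19 had a promoter peak, 17 of them in dKO and 7 in WT. MIRLET7A1HG, host of let-7 family microRNAs, had 52 in WT, 119 in dKO and 76 in BAF53B. MIR181A2HG had 44, 91 and 55, while MIR181A1HG, which hosts microRNAs of the same family, had a lower pileup in dKO but, as given above, a higher fold over local background. MIRLET7IHG had 30, 36 and 40. MIR17HG, host of the miR-17 to miR-92 cluster, had 35 in dKO and 43 in BAF53B with no WT peak. MIR762HG had 60 in dKO and 38 in BAF53B, and MIR130AHG had 57 and 39. In dKO alone were MIR205HG, MIR31HG, MIR202HG, MIR3663HG, MIR4713HG, MIR4435-2HG, MIRLET7BHG and MIR7-3HG. MIR122HG had a peak in WT alone (31), MIR1915HG in BAF53B alone (37), and MIR378D2HG had 36, 92 and 51.

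Neural lncRNAs had a peak at 4 of 19 standalone genes. MIR9-1HG, host of the neural microRNA miR-9, had a pileup of 43 in WT, 77 in dKO and 45 in BAF53B, so dKO was 1.66-fold above WT after division by background. WT had 2 promoter peaks at this gene, of which 1 is given. The BAF53B summit lay 690 bp from the summit of that WT peak and 638 bp from the dKO summit. The BAF53B value is thus from another summit position. MIAT had 88 in dKO and 45 in BAF53B with no WT peak. MEF2C-AS1 had 52 and MIR7-3HG 64, both in dKO alone. Among imprinted lncRNAs, 1 of 11 had a peak, KCNQ1OT1, the RNA that silences its imprinted domain in cis, with 67 in dKO and 34 in BAF53B. The p53 and stress list had 2 of 8, MIR31HG and NEAT1, both in dKO. No gene of the pluripotency list (0 of 8) or of the HOX cluster and mesoderm list (0 of 7) had a standalone promoter peak. With 3 divided by the number of genes as an approximate upper limit, not a Wilson interval, these counts allow shares of up to 37.5% and 42.9%.

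**Figure D4:**
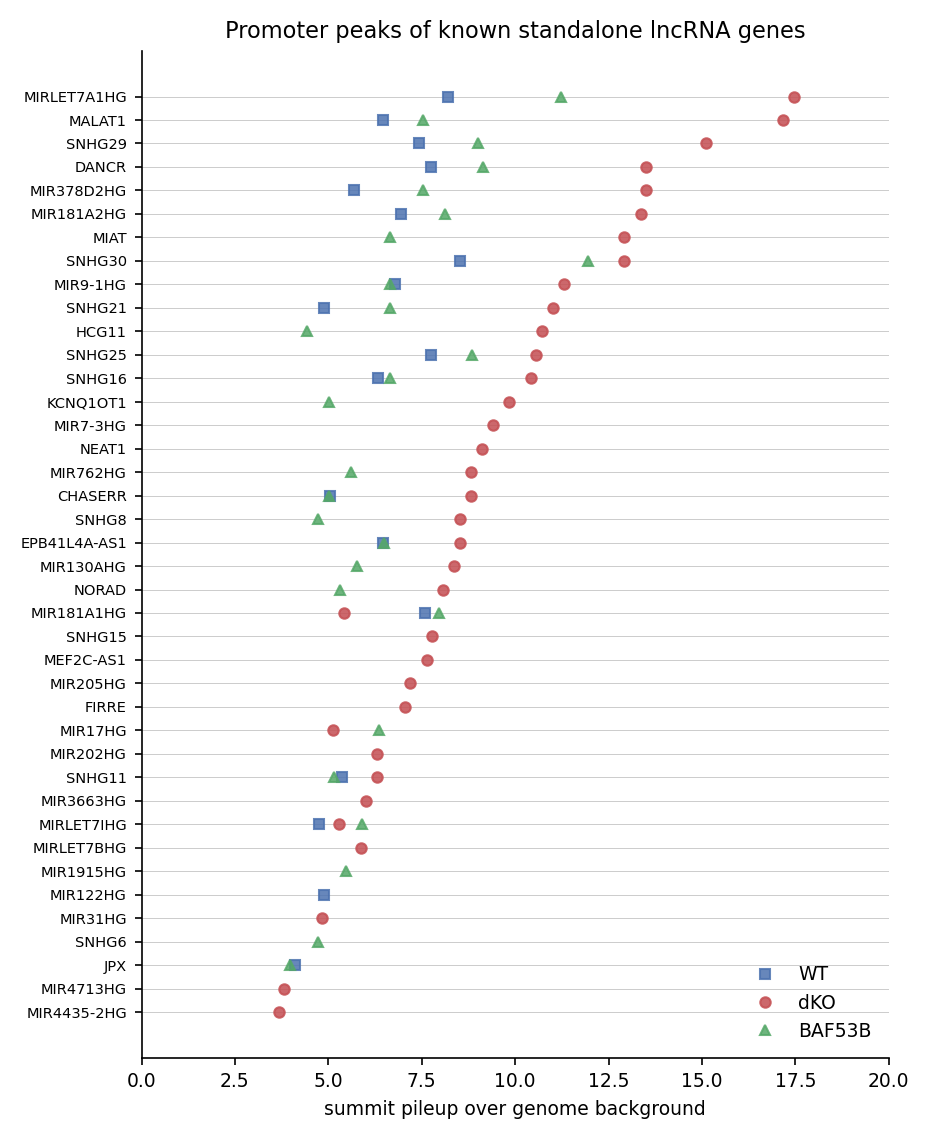
Summit pileup divided by genome background (x axis) for each known standalone lncRNA gene with a promoter peak (y axis), with squares for WT, circles for dKO and triangles for BAF53B, and no symbol where a list had no peak. MALAT1 and MIRLET7A1HG had the highest values, in dKO at 17.2 and 17.5.

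Among regions called in all 3 lists, ENSG00000271780, at chr14:101947821-101948950 and 16.3 kb from the start of DYNC1H1, had the highest fold enrichment of those described here. Its pileup was 59 in WT, 184 in dKO and 98 in BAF53B. ENSG00000291177 on chromosome 19 had 50, 147 and 85. ENSG00000286756, on chromosome 11 between the starts of NEAT1 and MALAT1, had 82, 220 and 92. ENSG00000262202 on chromosome 17, a host of small RNAs, had 25, 82 and 33. At each of these named regions the dKO value was the highest and the BAF53B value lay closer to the WT value than to the dKO value. These regions were picked by their highest fold in any list, which was the dKO fold at each. A high dKO value is thus partly set by that choice.

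The highest region in dKO alone was ENSG00000266495, at chr18:23259640-23260272 in the body of CABLES1 and TMEM241, with a pileup of 104. LINC00621 followed with 50, CCT6P3, whose locus overlaps a pseudogene, with 48, FIRRE with 48 and ENSG00000287875 with 58. The summit of ENSG00000287875 lay in a protein-coding exon and 21 bp from a protein-coding transcript start. In dKO and BAF53B without WT, LINC03067 had 63 in dKO and 28 in BAF53B, ANO3-AS1 had 71 and 53, and NBR2 had 85 and 48. ENSG00000276216 had 60 and 32, and ENSG00000290395 had 70 and 31. In all 5 of these the dKO pileup was the larger, but the fold by which they were picked was also the dKO fold.

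In WT alone the highest fold was at PRICKLE2-AS3, at chr3:64187082-64188065 in an intron of PRICKLE2 on the opposite strand, with a pileup of 45. SYNE1-AS1, whose summit lay in a protein-coding exon and 136 bp from a protein-coding transcript start, had 33. ENSG00000263594 had 27, ENSG00000235911 30 and MIR122HG 31. In WT and BAF53B without dKO, ENSG00000291099 had 25 in WT and 47 in BAF53B, MACC1-AS1 had 43 and 41, and THORLNC 29 and 42. ENSG00000248206 had 31 and 53, and LINC02366 had 31 and 40. Of these 5, MACC1-AS1 was the only one with the larger pileup in WT, and the only one picked by its WT fold. In BAF53B alone were ENSG00000289510 (45), ENSG00000225458 (41), ENSG00000287670 (40), ENSG00000278595 (36) and ENSG00000260422 (44).

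The sequence around the summits was described by its GC content and by the CpG ratio, the count of CG dinucleotides over that expected from the C and G content. The median GC content of lncRNA promoter peaks was 63.4% in WT, 64.2% in dKO and 62.7% in BAF53B, between protein-coding promoter peaks (65.7%, 67.7% and 66.7%) and distal peaks (49.8%, 54.7% and 49.8%). The median CpG ratio was 0.76 in WT, 0.70 in dKO and 0.72 in BAF53B. Over all peaks it was 0.76, 0.55 and 0.63, so WT members were level with WT peaks in general. Protein-coding promoter peaks had 0.86, 0.85 and 0.86, and distal peaks 0.29, 0.26 and 0.26. In windows centred on annotated starts instead of summits, the 13709 standalone lncRNA genes with no peak had a median GC content of 47.3%. Their median CpG ratio was 0.24. The starts of the 1444 standalone lncRNA genes with a peak had 60.7% and 0.62.

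The list patterns separated by CpG content. Regions in all 3 lists had a median CpG ratio of 0.81 (quartiles 0.64 and 0.95) and regions in dKO and BAF53B 0.76 (0.52 and 0.92). Regions in dKO alone had 0.54 (0.28 and 0.78) and regions in BAF53B alone 0.29 (0.13 and 0.50). The 20 regions in WT alone had 0.21 and the 16 in WT and BAF53B without dKO 0.26. GC content fell the same way for BAF53B alone (median 50.7%) and WT alone (49.3%), whereas dKO alone kept 63.2%, near the 64.7% of all 3 lists.

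Motifs were searched on both strands in the same windows of 100 bases to each side, as exact letters, and a match describes the sequence only. The SP/KLF motif GGGGCGG was found in 30.9% of WT, 28.7% of dKO and 28.1% of BAF53B lncRNA promoter peaks, against 31.2%, 24.4% and 26.0% of all peaks and 43.8%, 43.99% and 44.7% of protein-coding promoter peaks. By pattern it was in 114 of 297 regions of all 3 lists (38.4%), 102 of 326 of dKO and BAF53B (31.3%), 126 of 543 of dKO alone (23.2%) and 9 of 140 of BAF53B alone (6.43%). Between BAF53B alone and dKO alone it differed by -16.8 points (interval -21.6 to -10.5). The NFY motif AGCCAAT was in 14.8% of regions of all 3 lists, 5.52% of dKO and BAF53B, 2.76% of dKO alone and 2.86% of BAF53B alone. The ETS motif CCGGAAGT and the NRF1 motif GCGCATGCG had the same order between all 3 lists (6.397% and 6.06%) and dKO alone (0.55% and 1.10%).

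The AP-1 motif, TGACTCA or TGAGTCA, was in 26 of 356 WT members (7.30%), 39 of 1189 dKO members (3.28%) and 44 of 783 BAF53B members (5.62%), against 5.55%, 3.54% and 7.84% of all peaks and 11.9%, 4.90% and 13.7% of distal peaks. It was in 15 of 140 regions of BAF53B alone (10.7%) and 12 of 543 of dKO alone (2.21%), a difference of 8.50 points (interval 4.09 to 14.8). The SOX motif, CCATTGT or CCTTTGT, was in 10.7% of BAF53B alone and 5.89% of dKO alone, a difference of 4.82 points (0.10 to 11.3), beside 10.6% of BAF53B and 9.38% of dKO distal peaks and 7.29% and 7.05% of all their peaks. CTCF sites, named by the factor that shapes chromatin loops, were in 4.97% of dKO alone and 1.01% of regions in all 3 lists. The difference was 3.96 points (1.51 to 6.23). Regions of dKO and BAF53B held one at 3.99%, 2.98 points above all 3 lists (0.45 to 5.77), and BAF53B alone at 4.29%. All dKO peaks held one at 3.30% and dKO distal peaks at 4.93%, about the share of dKO alone. The intervals are not adjusted for the number of motifs compared.

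The other motifs searched were the CRE TGACGTCA, YY1 AAGATGGCG, RFX GTTGCCATG or GTTGCTATG, the POU octamer ATGCAAAT, the homeobox site TAATTA and TEAD ACATTCCA. Among dKO members these were in 2.27%, 0.67%, 1.43%, 0.59%, 1.51% and 1.26% of windows, and in all dKO peaks in 1.39%, 1.15%, 1.38%, 0.98%, 2.63% and 1.40%. A TATA box, TATAAA read on the gene's strand and starting 40 to 20 bases upstream of the annotated start, was found at 9 of 1444 standalone lncRNA starts with a peak (0.62%, interval 0.33 to 1.18). It was found at 1.55% of such starts without a peak and at 3.02% of protein-coding starts.

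**Figure D5:**
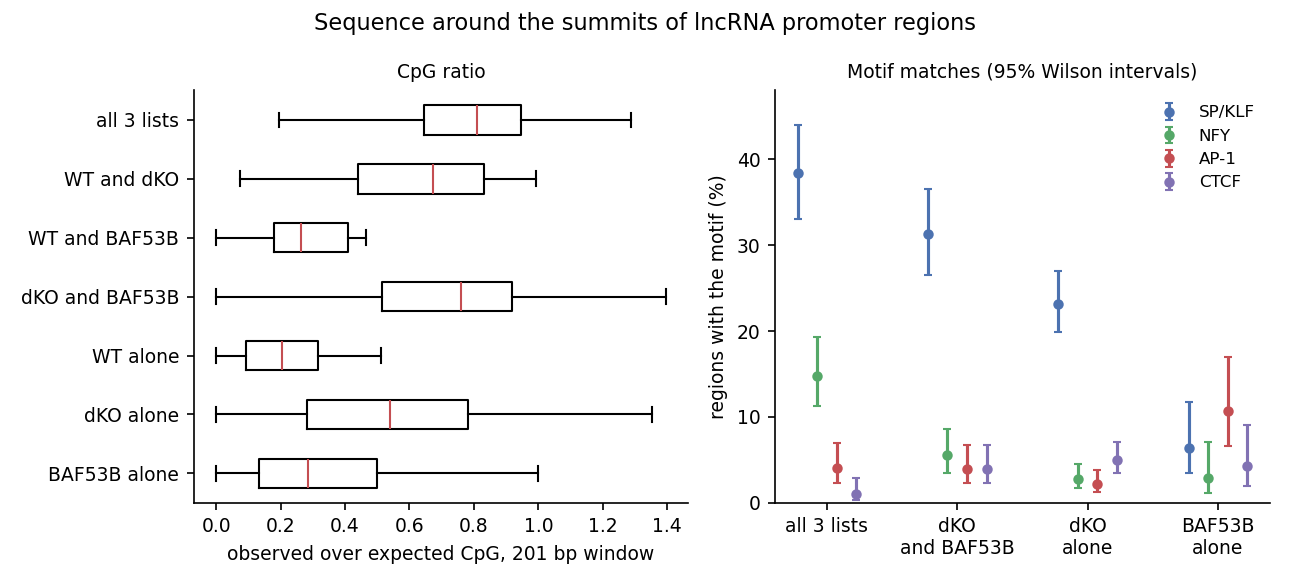
CpG ratio of the window of 100 bases to each side of the summit by list pattern (left, boxes for quartiles with the median in red, whiskers to 1.5 interquartile ranges) and share of regions with a motif in the 4 larger patterns (right, %, 95% Wilson intervals). The SP/KLF share falls from 38.4% in all 3 lists to 6.43% in BAF53B alone, where AP-1 is at 10.7%.

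Markers of the cell types bear on the labelled identity of the cells through protein-coding promoters only. Their counts stand beside the share of all protein-coding genes with such a peak, which was 26.0% for the WT list, 51.1% for dKO and 40.9% for BAF53B. So few markers cannot rank the groups by identity, since the lists also differ in length. Of 10 neural progenitor genes, 2 had a promoter peak in WT (HES1 and VIM) and 5 each in dKO and BAF53B, among them SOX1 in both. SOX2 had one in dKO only, and PAX6 and NES in no list. Of 6 pluripotent genes, 0 had one in WT and BAF53B and 2 in dKO (LIN28A and TDGF1). Neuronal and mesenchymal markers had 1 and 0 in WT, 2 and 1 in dKO and 2 and 1 in BAF53B, and their part in the lncRNA promoter peaks was not tested.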

How the data were processed

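ATAC-seq was measured in 6 samples, 2 replicates for each of WT, dKO and BAF53B NPCs. The authors trimmed reads with cutadapt 1.13, aligned them to hg38 with Bowtie2 2.2.5, removed duplicates with SAMtools 1.3.1 and Picard 1.90, and called peaks with MACS2, whose version, options and any Tn5 shift are not given in the sources used here. The submitters' processing notes also name deepTools 2.4.2 and HOMER. Each deposited list pools both replicates and holds peaks with a -log10 q-value of at least 5, the fold over local background and the -log10 p-value. Read totals are not in these lists.

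From the deposited fold, a ratio with 1 added to both terms, and the p-value, the summit pileup and the local background were solved, taking the pileup as a whole number, which returned every deposited -log10 p-value within 0.00044; the lowest background of a list was taken as its genome background. Gene starts came from GENCODE 44, with 18866 lncRNA and 20046 protein-coding genes. Peaks were partners when they overlapped by at least 1 bp. Shares have Wilson and differences Newcombe 95% intervals; with 1 list per group no test was run. Sequences were read 100 bp to each side of the summit. The region of highest fold, and its sequence, are counted among the members but not reported here. Tables were handled with pandas 2.3.3 and numpy 2.4.6 under Python 3.11.15, statistics with scipy 1.17.1 and sequence with samtools 1.23.1 and pysam 0.24.0, and the steps were tested on simulated data. The members, gene lists and motifs were chosen with earlier results of these data known.

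Named were the genes of the known lncRNA lists with a promoter peak, the 5 regions of highest fold in each of 6 list patterns, and the 3 highest and 3 lowest pileup ratios of dKO over WT and of BAF53B over dKO. Alternatives covered the peak threshold, list length, transcript starts, distances, overlap, sequence window and chromosomes.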

Additional observations from a re-analysis of the deposited data

How the results depend on the processing

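No paired analysis was possible because both replicates of a group stand in 1 list, and leaving out each replicate in turn could not be run for the same reason. No median ratio changed direction under any setting tried. With a -log10 q of at least 10, members numbered 133 in WT, 620 in dKO and 351 in BAF53B, and genes 159, 687 and 403. The share of WT members with a dKO peak was then 94.0%, of dKO members with a WT peak 20% and with a BAF53B peak 45.8%, and of BAF53B members with a WT peak 33.3%, with a median BAF53B over dKO ratio of -0.39. With lists of equal length, dKO had 409 members at 466 genes and BAF53B 402 at 459. The shares in the order WT with dKO, WT with BAF53B, dKO with WT, dKO with BAF53B, BAF53B with WT and BAF53B with dKO were then 69.1%, 71.6%, 58.7%, 66.0%, 62.2% and 67.2%, and the median ratios 0.81, 0.37 and -0.49. With the starts of all transcripts, the shares in that order were 83.6%, 84.7%, 21.8%, 46.2%, 34.01% and 70.2%, and with a reciprocal overlap of 50% they were 63.5%, 69.1%, 19.1%, 44.7%, 31.7% and 68.2%. With lncRNA starts within 500 bp, dKO with BAF53B was 56.4% and BAF53B with dKO 83.3%. With the authors' fold the medians were 0.43 for dKO over WT, 0.17 for BAF53B over WT and -0.16 for BAF53B over dKO. With 50 bp to each side, which leaves less sequence to search, WT GC content was 64.4%, SP/KLF shares were 21.1%, 16.9% and 16.3% in WT, dKO and BAF53B, AP-1 shares 2.27% in dKO and 4.09% in BAF53B, and the CTCF share 2.44% in dKO. Of settings chosen after seeing the data, leaving out the region of highest fold moved no value beyond its interval, and leaving out members with a protein-coding transcript start within 3 kb gave 23.8% for dKO with WT, 48.3% for dKO with BAF53B and 74.8% for BAF53B with dKO. The spread between replicates is unknown, and a site without a called peak may be open below the threshold.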
